A study of Mus musculus with 15 samples.

Results

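The genes examined were 10 genes of the circadian clock, of 23420 mouse genes in the deposited tables. They were taken by name: Arntl (the gene of BMAL1), Clock and Npas2 of the positive limb, Per1, Per2 and Per3 of the negative limb, the nuclear receptor genes Nr1d1 and Nr1d2, and the output genes Dbp and Tef. The measurements were RNA-seq of whole epidermis and whole tongue from newborn mice at postnatal day 1. The knockout (KO) pups were homozygous (-/-) for the loss of the 7 HAT/DESC genes Tmprss11a to Tmprss11g, which encode serine proteases anchored in the membrane of surface epithelia. The wild-type (WT) pups carried no such change, and the labels name no Cre, no treatment and no background strain for either group. There were 4 KO epidermis, 3 WT epidermis, 4 KO tongue and 4 WT tongue libraries. By the A-numbers of the labels they came from 9 pups. Both tissues were read in 6 pups, KO pups A328, A343, A386 and A387 and WT pups A383 and A384. WT pup A325 gave epidermis only, and WT pups A329 and A342 gave tongue only. These numbers form 3 ranges (called A32x, A34x and A38x here), and the labels do not say what a range stands for, nor at what hour a pup was collected. Beyond these numbers nothing in the labels says that samples of a group were separate animals, so a p-value here speaks of the spread between the libraries at hand.

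The circadian clock is a loop of transcription. BMAL1 pairs with CLOCK, or with its relative NPAS2, binds E-box sequences and switches on the Per and Cry genes, whose proteins return to the nucleus and block that same pair. The REV-ERB receptors made from Nr1d1 and Nr1d2 repress Arntl through a response element they share with the ROR receptors. DBP and TEF are transcription factors of the PAR bZIP family that bind D-boxes and pass the rhythm on, Per genes being among those with D-boxes. In adult skin the clock times processes such as cell division in the epidermis, and Per1 and Per2 are also known to be induced directly by glucocorticoid hormone.

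The promoters of the genes were searched for the elements of this loop. RefSeq windows around the start sites (build GRCm38.p6) were found for 9 of the 10 genes, 14 windows in all, and Per2 was not among them. Both strands were searched for the E-box CACGTG, its E-prime form CACGTT, the D-box TTATGTAA, the response element core TAGGTCA or TGGGTCA, and the cAMP response element TGACGTCA. Among all 32851 RefSeq windows, 7.15% held the E-box, 4.68% the E-prime form, 0.938% the D-box, 6.45% the response element core and 1.79% the cAMP element. Of the 14 windows of the clock genes 3 held the E-box, 1 the E-prime form, 1 the D-box, 1 the response element core and 0 the cAMP element. The sequences printed here are those in which a clock element was found, with the element in capitals and its first base counted from the start site. Per1 had an E-box at -166 (chr11:69098699-69098948, plus strand), and Tef had one at -127 of its first start (chr15:81802423-81802672, plus strand). Per3 had the D-box at 2 places, -205 and -158 (chr4:151044666-151044915, minus strand). Nr1d1 had the E-prime form at -28, read on the other strand as AACGTG (chr11:98775388-98775417, minus strand). The bases just after that start were not found in a GENCODE M21 transcript of Nr1d1, while those of every other window were found in a transcript of their gene. Arntl had the response element core inside the transcript, 31 bases past its second start (chr7:113207529-113207558, plus strand).
Per1: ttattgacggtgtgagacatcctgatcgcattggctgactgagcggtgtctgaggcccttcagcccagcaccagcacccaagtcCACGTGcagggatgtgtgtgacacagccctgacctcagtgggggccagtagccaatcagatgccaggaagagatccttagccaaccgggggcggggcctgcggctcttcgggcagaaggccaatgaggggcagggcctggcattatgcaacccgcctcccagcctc
Tef: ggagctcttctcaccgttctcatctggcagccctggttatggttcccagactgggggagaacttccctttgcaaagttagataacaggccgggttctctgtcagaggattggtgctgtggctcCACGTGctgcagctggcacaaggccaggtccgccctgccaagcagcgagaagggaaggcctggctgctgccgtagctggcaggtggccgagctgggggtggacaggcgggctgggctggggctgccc
Per3: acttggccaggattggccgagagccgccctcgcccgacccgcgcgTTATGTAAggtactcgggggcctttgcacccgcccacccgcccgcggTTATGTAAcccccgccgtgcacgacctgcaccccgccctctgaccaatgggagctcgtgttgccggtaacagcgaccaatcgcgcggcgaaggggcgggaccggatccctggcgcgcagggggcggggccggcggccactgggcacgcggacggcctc
Nr1d1: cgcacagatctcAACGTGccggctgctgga
Arntl: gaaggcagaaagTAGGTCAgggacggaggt
The second window of Tef held an E-box too, at -138. None of these elements was found in the windows of Clock, Npas2, Dbp and Nr1d2, and the cAMP element was in no window of the 9 genes. A match shows only that the letters are present in a window, and no match that they are not in that window.

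Levels are the authors' deposited CPM, reads scaled to a common library size after a TMM factor per library. Reads per library numbered 11789325 to 16641166 in KO epidermis, 10117819 to 17045801 in WT epidermis, 10685429 to 17819195 in KO tongue and 11541046 to 15058861 in WT tongue. Epidermis WT 1 (pup A325) stood apart, with 44.62% of its reads on mitochondrial ribosomal RNA and a mean correlation of 0.858 with the other epidermis libraries, which had 0.941 to 0.956 with theirs. Of the targeted genes, Tmprss11b had 0.35 to 1.22 CPM in KO epidermis against 3.7 to 4.06 CPM in WT epidermis, and 12.3 to 18.41 CPM in KO tongue against 55.7 to 70.97 CPM in WT tongue. Tmprss11f, the main member of the cluster in epidermis, had 103.43 to 234.47 CPM in KO epidermis against 243.46 to 299.5 CPM in WT epidermis. The KO epidermis library of pup A343 went in part against its label, with Tmprss11a at 2.68 CPM against 2.2 to 2.45 CPM in WT epidermis and Tmprss11g at 19.94 CPM against 6.95 to 11 CPM in WT epidermis. Its sum over 6 targeted genes was 260.89 CPM, against 262.78 to 318.45 CPM in WT epidermis, while its Tmprss11b was the lowest of all libraries. Without it, too, 0 of the 10 clock genes were called in KO against WT epidermis. In tongue A343 had a sum of 152.02 CPM, and the WT libraries had 383.41 to 431.12 CPM. The summed CPM of the keratinocyte genes Krt5, Krt14, Krt1 and Krt10 was 30922 to 53082 in KO and 22368 to 48183 in WT epidermis, and 492.76 to 800.97 over the tongue libraries of both genotypes. The summed CPM of 6 skeletal muscle genes was 88.11 to 688.57 in KO and 100.13 to 265.07 in WT epidermis, against 29662 to 51553 in KO and 25969 to 50418 in WT tongue. The tongue libraries are thus of muscle and connective tissue as well as epithelium.

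All 10 clock genes were detected in all 15 libraries. Their positions are given beside each gene as the gene bodies of GENCODE M21 on GRCm38. Read counts were lowest for Dbp (20 to 139) and Npas2 (17 to 146) and highest for Per1 (280 to 3191) and Clock (1026 to 2054). Per kb of annotated exon, Per1 came first in epidermis at a median of 16.4 CPM per kb (range 10.9 to 35.1), above every epidermis value of the next gene, Tef (median 7.68, range 3.91 to 9.33). Clock, Nr1d2, Nr1d1, Arntl, Per2, Per3, Dbp and Npas2 followed, and each neighbouring pair of these overlapped. In tongue the order by median was Nr1d2 (13.8 CPM per kb), Clock, Per1, Tef, Nr1d1, Per2, Arntl, Dbp, Per3 and Npas2 (1.15 CPM per kb), and every neighbouring pair overlapped.

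**Figure D1:**
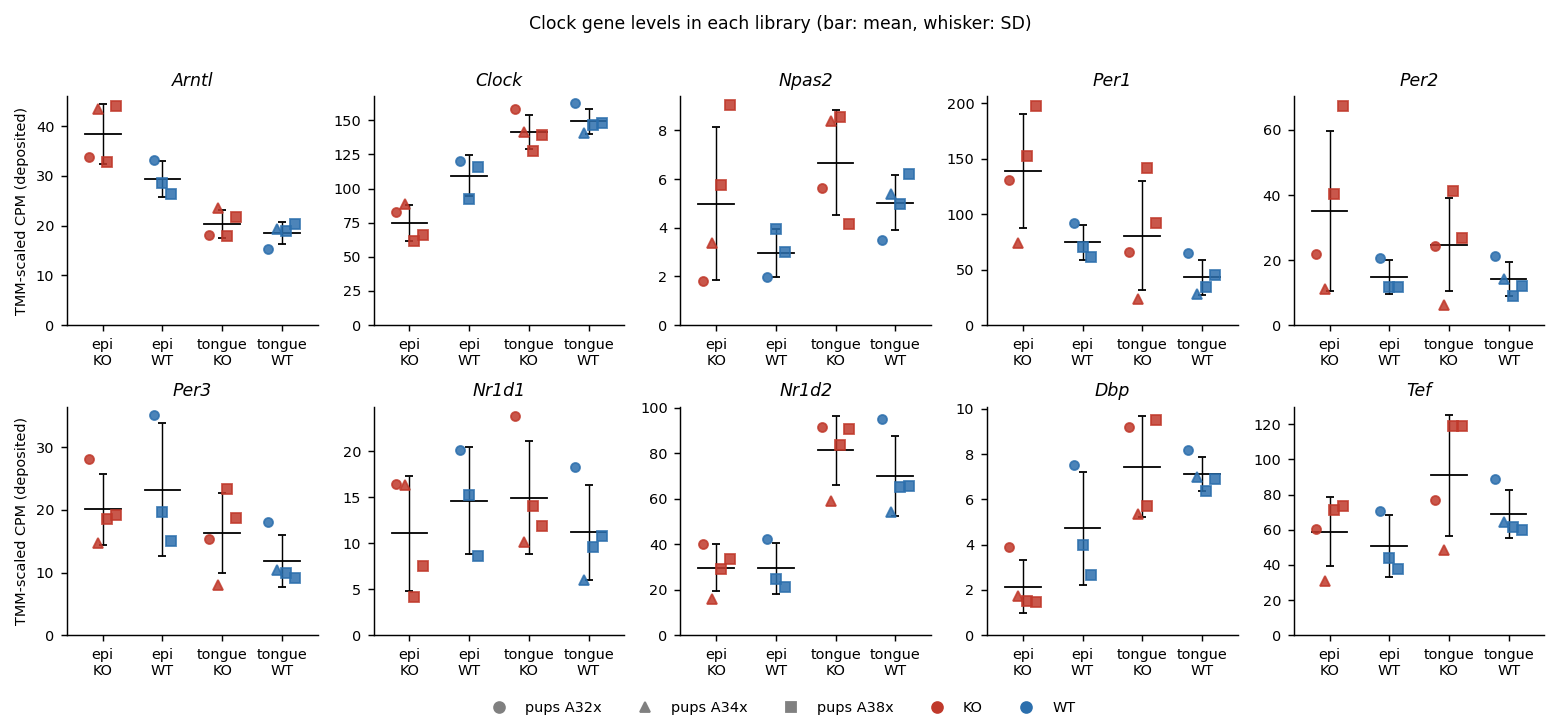
Scaled CPM of the 10 clock genes in each library, on a linear axis from 0, for KO epidermis (n = 4), WT epidermis (n = 3), KO tongue (n = 4) and WT tongue (n = 4). Lines are group means with SD, and marker shapes give the range of pup numbers. Arntl was higher and Nr1d2 lower in epidermis than in tongue, and KO pups of the A38x range had the highest Per1 and Per2 values in epidermis.

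The clock genes were compared between genotypes within each tissue, and none passed. In KO against WT epidermis edgeR called 0 of the 10 genes at an adjusted p under 0.05, where it called 0% of all 16073 genes tested. At an unadjusted p under 0.05 it found 3 of the 10 (Per1, Clock and Dbp), against 1.16% of all genes. DESeq2 called 1 gene of the 16073 and limma-voom 0, with no clock gene called by either tool, with 259 and 156 genes at an unadjusted p under 0.05. In KO against WT tongue edgeR called 0 of the 10, where it called 0.0127% of 15741 genes. The genotypes overlapped in tongue for all 10, where 2.20% of all genes did not, and 0 of the 10 had an unadjusted p under 0.05 against 3.15% of all genes. DESeq2 called 4 genes and limma-voom 2 in tongue, again none of them a clock gene, with 470 and 462 at an unadjusted p under 0.05. The log2 fold changes of KO against WT lay above 0 for 5 of the 10 in epidermis (median 0.09) and for 9 of the 10 in tongue (median 0.39), where the medians of all genes were 0.00 and 0.01. Of all genes 50.2% lay above 0 in epidermis and 51.8% in tongue. Several clock genes rose and fell together across libraries, so these counts are not of independent genes. The difference between the genotype effects of the 2 tissues was called for 0 of the 10, as for 0% of 17935 genes, and 1 clock gene had an unadjusted p under 0.05 (Dbp) against 1.67% of all genes. DESeq2 called 1 gene and limma-voom 0 there, with 316 and 215 at an unadjusted p under 0.05, and no clock gene among the calls. These comparisons could miss changes. In simulated counts 17% of genes changed 2-fold were recovered for epidermis, 81% for tongue and 13% for the difference. Recovery at the spread of the clock genes themselves was not tested. The SEs of their log2 fold changes in tongue ran from 0.10 (Clock) to 0.53 (Per1).

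The 2 tissues differed far more than the genotypes. In KO epidermis against KO tongue 4 of the 10 clock genes were called, where 63.8% of 16398 genes were called. In WT epidermis against WT tongue 4 of the 10 were called, where 63.6% of 16577 genes were called. With the pup as a block 6 of the 10 were called in KO pups, where 61.9% of all genes were, and in the A38x pups alone 6, where 56.0% were. In WT pups 8 of the 10 were called in A38x alone, where 69.6% of all genes were, and 8 in the same pups with the pup as a block, where 67.8% were. The share of clock genes called was below that of all genes with all libraries taken as unpaired, and not in the A38x fits. The libraries of the tissues did not overlap for 1 clock gene higher in epidermis and 3 lower in KO pups, against 27.1% and 30.8% of all genes, and for 1 higher and 2 lower in WT pups, against 30.7% and 34.6%. Arntl was higher and Nr1d2 lower in epidermis in both genotypes. Clock and Dbp were called in KO pups alone and Per1 and Per3 in WT pups alone, and the test of that difference is the one between the genotype effects above, which called none of them.

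**Figure D2:**
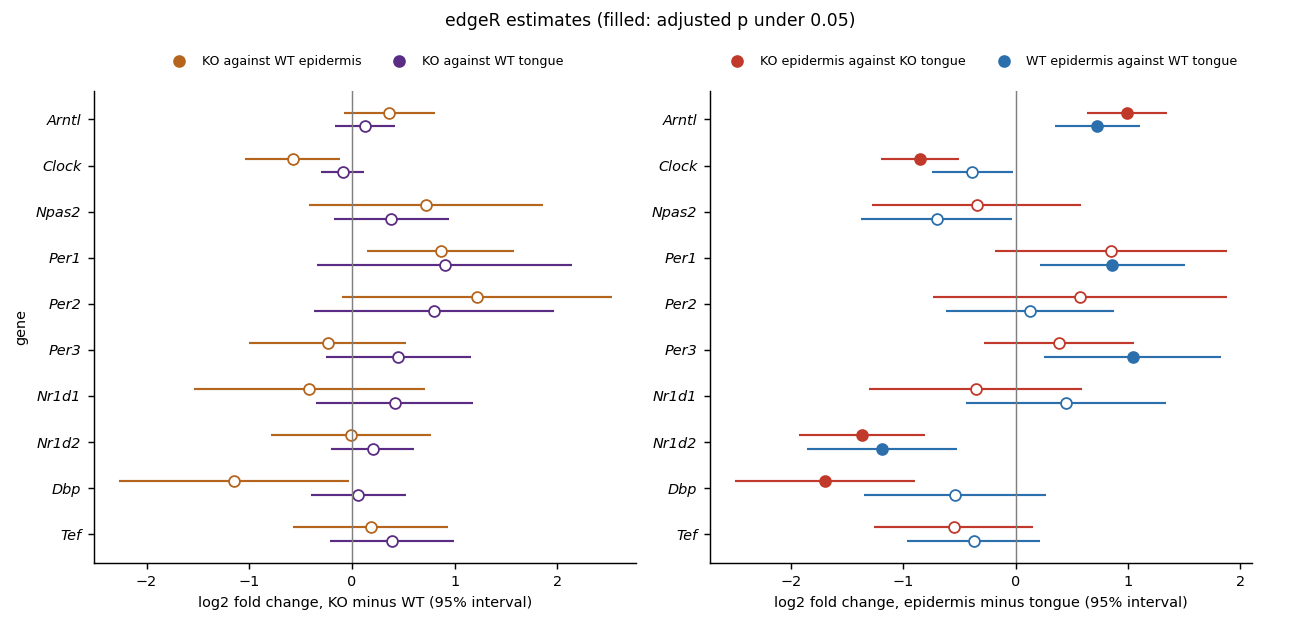
Estimated log2 fold changes (edgeR, with 95% intervals) of the 10 clock genes. The left panel gives KO minus WT in epidermis and in tongue, where no point is filled. The right panel gives epidermis minus tongue in KO and in WT pups. Filled points have an adjusted p under 0.05, 4 in KO and 4 in WT.

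Arntl (chr7:113207465-113314126, plus strand), whose product BMAL1 is the partner both CLOCK and NPAS2 need, had 33.79, 43.34, 32.71 and 44.01 CPM in KO epidermis, against 33.28, 28.5 and 26.28 CPM in WT epidermis. In tongue it had 18.17, 23.51, 17.89 and 21.76 CPM in KO pups, against 15.25, 19.3, 18.89 and 20.3 CPM in WT pups. Every epidermis library lay above every tongue library, while the genotypes overlapped in both tissues. The epidermis was higher than the tongue by a log2 fold change of 0.99 (SE 0.16, adjusted p = 2.36e-04) in KO and of 0.73 (SE 0.17, adjusted p = 0.00432) in WT pups. In the 6 pups with both tissues it was higher in epidermis in 6 of 6, by 0.37 to 1.02. In whole tissues fewer cells of a type and less RNA per cell cannot be told apart, and the part that the unlike cell types of epidermis and tongue play in such differences was not tested.

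Clock (chr5:76209868-76304792, minus strand), whose product is the usual partner of BMAL1, had 82.55, 88.58, 61.42 and 65.87 CPM in KO epidermis, against 120.29, 92.61 and 115.82 CPM in WT epidermis. All 4 KO values lay below all 3 WT values. It was the only 1 of the 10 genes whose groups did not overlap in epidermis, where 1.26% of all genes had every KO library below every WT library. The log2 fold change was -0.58 (SE 0.21), with an edgeR adjusted p of 0.9998. In tongue it had 158.14, 141.32, 127.86 and 139.27 CPM in KO pups, against 162.5, 140.97, 146.6 and 147.78 CPM in WT pups, and the groups overlapped (log2 fold change -0.09, SE 0.10). Clock was lower in epidermis than in tongue in KO pups (log2 fold change -0.85, SE 0.16, adjusted p = 5.95e-04). In WT pups it was also lower in every library, and the fold change of -0.39 (SE 0.16) did not pass (adjusted p = 0.0576). It passed there with DESeq2 (adjusted p = 0.0204), limma-voom (0.0449) and DESeq2 size factors in edgeR (0.0445). In WT pups the log2 fold change of epidermis against tongue passed without epidermis WT 1 (-0.51, adjusted p = 0.00178).

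Npas2 (chr1:39193731-39363236, plus strand), which can stand in for Clock, was the least abundant per kb in both tissues. It had 1.83, 3.37, 5.74 and 9.04 CPM in KO epidermis, against 1.96, 3.93 and 2.99 CPM in WT epidermis. Its tongue levels were 5.63, 8.37, 8.56 and 4.17 CPM in KO pups, against 3.5, 5.4, 4.99 and 6.2 CPM in WT pups. The groups overlapped in both tissues, and the lowest epidermis values of each genotype were those of the A32x pups. No comparison of Npas2 passed in edgeR with all libraries (log2 fold changes of KO against WT 0.72 in epidermis, SE 0.51, and 0.38 in tongue, SE 0.26). Between the tissues of WT pups it passed with DESeq2 on all libraries (-0.74, adjusted p = 0.0457) and in A38x alone (-0.70, adjusted p = 0.0229). It also passed there without epidermis WT 2 (-0.96, adjusted p = 0.0382) or tongue WT 1 (-0.85, adjusted p = 0.0364).

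Per1 (chr11:69095217-69109960, plus strand), a repressor of the activating pair and an early responder to outside signals, carries the E-box shown in its window. It had 131.24, 73.81, 152.26 and 197.54 CPM in KO epidermis, against 92.21, 70.21 and 61.12 CPM in WT epidermis. Of the KO pups A343 alone fell within the WT values. In tongue it had 66.02, 23.43, 141.25 and 92.32 CPM in KO pups, against 64.83, 28.25, 34.09 and 44.74 CPM in WT pups, where the KO pup A343 had the lowest value of all 8 libraries and A386 the highest. The log2 fold change of KO against WT was 0.86 in epidermis (SE 0.32, edgeR adjusted p = 0.9998) and 0.90 in tongue (SE 0.53, edgeR adjusted p = 0.939), and neither passed. Per1 was higher in epidermis than in tongue in 6 of 6 pups, by a log2 difference of 0.11 to 1.66. The tissue difference passed in WT pups (0.86, SE 0.29, adjusted p = 0.0246) and not in KO pups (0.85, SE 0.46, adjusted p = 0.134). With the pup as a block the difference in KO pups passed as well, at 1.03 with an adjusted p of 0.00445, where 61.9% of all genes were called. It also passed without tongue KO 3, pup A386 (1.26, adjusted p = 0.0393).

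Per2 (chr1:91415982-91459324, minus strand), the period gene whose protein is a main scaffold of the repressing complex, had 21.88, 10.96, 40.37 and 67.29 CPM in KO epidermis, against 20.68, 11.8 and 11.84 CPM in WT epidermis. Its tongue levels were 24.39, 6.28, 41.27 and 26.9 CPM in KO pups, against 21.4, 14.08, 8.99 and 12.04 CPM in WT pups. In each tissue A343, a KO pup, had the lowest value of all libraries, and KO pups A386 and A387 had the 2 highest. Its highest KO value was 6.14 times its lowest in epidermis and 6.57 times in tongue, the widest spread of the 10 genes within a group in these data. The log2 fold change of KO against WT was 1.21 in epidermis (SE 0.57) and 0.80 in tongue (SE 0.51), and neither passed. The epidermis value was 0.68 without KO 4, pup A387, and 0.57 with the replicate number as a block. Per2 did not differ beyond its spread between tissues in either genotype (0.57, SE 0.59 in KO and 0.13, SE 0.33 in WT).

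Per3 (chr4:151003652-151044665, minus strand), the period gene that mouse clocks depend on least, carries both D-boxes shown in its window. It had 28.09, 14.68, 18.48 and 19.19 CPM in KO epidermis, against 35.13, 19.66 and 15 CPM in WT epidermis. In tongue it had 15.35, 7.95, 23.27 and 18.68 CPM in KO pups, against 18.01, 10.36, 9.97 and 9.07 CPM in WT pups. The A32x pup of each genotype had that genotype's highest value in epidermis, and the groups overlapped in both tissues. In WT pups Per3 was higher in epidermis (log2 fold change 1.04, SE 0.35, adjusted p = 0.0262). This call and that of Per1 ended without epidermis WT 1 (adjusted p = 0.0576 for Per3 and 0.113 for Per1) and without tongue WT 2 (0.0766 and 0.0734), WT 3 (0.0711 and 0.0722) or WT 4 (0.0745 and 0.0550). In KO pups the difference was 0.38 (SE 0.31) and did not pass.

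Nr1d1 (chr11:98767932-98775333, minus strand), which encodes REV-ERB alpha, had 16.45, 16.32, 4.13 and 7.55 CPM in KO epidermis, against 20.11, 15.22 and 8.57 CPM in WT epidermis. Its tongue levels were 23.88, 10.12, 14.05 and 11.84 CPM in KO pups, against 18.33, 6.02, 9.65 and 10.78 CPM in WT pups. The A32x pup was the highest of its genotype in each tissue. The groups overlapped, and the log2 fold changes of KO against WT, -0.42 in epidermis (SE 0.50) and 0.41 in tongue (SE 0.35), did not pass. Between the tissues Nr1d1 overlapped in both genotypes, with log2 fold changes of epidermis against tongue of -0.36 (SE 0.43) in KO and 0.45 (SE 0.39) in WT pups, and neither passed. In KO pups of A38x alone it was lower in epidermis (-1.17, adjusted p = 0.0104). Thra, on the opposite strand, shares 8.55% of the exon bases of Nr1d1, and without strand information reads there cannot be told apart. Thra had 31.68 to 46.8 CPM in KO and 31.52 to 43.14 CPM in WT epidermis. In tongue it had 69.7 to 99.77 CPM in KO and 60.58 to 74.47 CPM in WT pups, so it was lower in epidermis. The part of shared reads in the levels of Nr1d1 was not tested.

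Nr1d2 (chr14:18204054-18239127, minus strand), which encodes REV-ERB beta, had 40.17, 16.14, 29.12 and 33.68 CPM in KO epidermis, against 42.18, 24.68 and 21.2 CPM in WT epidermis. In tongue it had 91.61, 58.99, 83.52 and 90.75 CPM in KO pups, against 95.23, 54.28, 65.16 and 65.67 CPM in WT pups. Every epidermis library lay below every tongue library. The log2 fold change of epidermis against tongue was -1.37 in KO (SE 0.26, adjusted p = 5.97e-04) and -1.19 in WT pups (SE 0.30, adjusted p = 0.00625), and the difference lay between -1.87 and -1.19 in the 6 pups with both tissues. The genotypes overlapped in both tissues, with a log2 fold change of KO against WT of 0.20 in tongue (SE 0.18) and of -0.01 in epidermis (SE 0.35), whose sign changed with the setting.

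Dbp (chr7:45705088-45710203, plus strand), an output gene known for a wide swing over the day in adult tissues, had 3.88, 1.73, 1.5 and 1.49 CPM in KO epidermis, against 7.51, 3.99 and 2.65 CPM in WT epidermis. The KO pup A328 was the only 1 of the 4 to reach the WT values. Its tongue levels were 9.21, 5.35, 5.71 and 9.51 CPM in KO pups, against 8.16, 7.0, 6.38 and 6.92 CPM in WT pups, and the KO values spread to both sides of the WT values. The log2 fold change of KO against WT was -1.15 in epidermis (SE 0.50, edgeR adjusted p = 0.9998) and 0.06 in tongue (SE 0.21, edgeR adjusted p = 0.972), and neither passed. The difference of these effects was -1.16 (SE 0.54) and did not pass. Without epidermis WT 1 the epidermis value was -0.60 and the difference -0.63, and without epidermis KO 1 they were -1.65 and -1.64. In KO pups Dbp was lower in epidermis than in tongue (log2 fold change -1.70, SE 0.37, adjusted p = 0.00160), in all libraries. In WT pups the difference was -0.54 (SE 0.36, adjusted p = 0.213). Without epidermis WT 1, the library that stood apart, the WT difference was -1.09 and passed (adjusted p = 7.32e-04). Sphk2, on the opposite strand, shares 539 of the 2993 exon bases of Dbp. It had 24.76 to 42.56 CPM in KO and 21.95 to 37.04 CPM in WT epidermis, against 8.36 to 14.71 CPM in KO and 7.77 to 12.93 CPM in WT tongue. How reads over the shared bases were counted is not given, and their part in the levels of Dbp was not tested.

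Tef (chr15:81802421-81826863, plus strand), a relative of Dbp, had 60.44, 30.73, 71.05 and 73.42 CPM in KO epidermis, against 70.83, 43.77 and 37.5 CPM in WT epidermis. In tongue it had 77.02, 48.61, 118.97 and 119.02 CPM in KO pups, against 88.98, 64.64, 61.81 and 59.92 CPM in WT pups. A386 and A387 were the highest in each tissue and A343 the lowest, all 3 of them KO pups. The log2 fold changes of KO against WT were 0.18 in epidermis (SE 0.33) and 0.39 in tongue (SE 0.27), and neither passed. Tef was lower in epidermis than in tongue in 6 of 6 pups, with log2 differences of -0.74 to -0.35. That difference did not pass with libraries taken as unpaired in KO pups (-0.55, SE 0.32, adjusted p = 0.154), and with the pup as a block it passed (-0.54, adjusted p = 0.0136), as it did without tongue KO 2, pup A343 (-0.77, adjusted p = 0.0373). In WT pups it did not pass with all libraries (-0.37, SE 0.26, adjusted p = 0.238), and it passed without epidermis WT 1 (-0.75, adjusted p = 9.11e-04).

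The A38x range holds 2 KO pups (A386 and A387) and 2 WT pups (A383 and A384), each with both tissues. Within it the genotypes stood further apart for Per1, Per2, Tef, Clock and Nr1d2 in both tissues. They also stood further apart for Arntl, Npas2 and Nr1d1 in epidermis and for Per3 and Dbp in tongue. They stood closer for Arntl, Npas2 and Nr1d1 in tongue and for Per3 in epidermis, and Dbp in epidermis hardly moved. In epidermis 5 of the 10 clock genes were called there, where 3.83% of 15760 genes were called, with 4 higher in KO (2.37% of all genes) and 1 lower (1.46%). Per2 was higher in KO (log2 fold change 2.17, SE 0.23, adjusted p = 2.74e-04), as were Per1 (1.40, SE 0.16, adjusted p = 1.86e-04), Tef (0.82, SE 0.16, adjusted p = 0.00935) and Npas2 (1.08, SE 0.28, adjusted p = 0.0476). Clock was lower (-0.72, SE 0.16, adjusted p = 0.0208), and Dbp did not pass (-1.16, SE 0.35, adjusted p = 0.0803). In tongue 0 of the 10 were called, where 0.0939% of 15975 genes were called. The largest tongue differences in A38x were those of Per2 (1.69, SE 0.26, adjusted p = 0.0794), Per1 (1.57, SE 0.24, adjusted p = 0.0729), Per3 (1.13, SE 0.20, adjusted p = 0.116) and Tef (0.96, SE 0.13, adjusted p = 0.0617).

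The other ranges hold at most 1 pup of each genotype per tissue and allow no test. A32x holds 1 pup of each genotype per tissue, with 131.24 CPM of Per1 in KO against 92.21 CPM in WT epidermis and 66.02 CPM in KO against 64.83 CPM in WT tongue. Per2 had 21.88 CPM in KO against 20.68 CPM in WT epidermis of A32x, and 24.39 CPM in KO against 21.4 CPM in WT tongue. In A34x, with 1 pup of each genotype in tongue and a KO pup only in epidermis, Per1 had 23.43 CPM in KO against 28.25 CPM in WT tongue and Per2 had 6.28 CPM in KO against 14.08 CPM in WT tongue. With 2 pups of each genotype in A38x, genotype and other features of those pups cannot be told apart.

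Genes known to respond to glucocorticoid hormone moved with Per1, Per2 and Tef in the A38x pups. Those read here were Fkbp5, Tsc22d3, Sgk1, Zbtb16, Klf9 and Dusp1. Of these 6 genes, 6 had both KO libraries above both WT libraries of A38x in epidermis and 6 in tongue. Of all genes at a mean CPM of at least 1, 24.7% and 24.6% did. The list was chosen with earlier results of these data known. Its genes were read in the same pups, so these counts are not of independent genes and carry no test. The summed level of the 6 genes was 777.68 and 644.98 CPM in A38x KO epidermis, against 207.22 and 202.41 CPM in A38x WT epidermis. In tongue it was 743.68 and 712.67 CPM in A38x KO, against 306.45 and 336.89 CPM in A38x WT pups. The KO pups outside A38x had 181.16 and 215.92 CPM in epidermis and 409.17 and 248.58 CPM in tongue, where the WT libraries had 118.32 to 207.22 CPM in epidermis and 306.45 to 364.73 CPM in tongue. The immediate early genes Fos, Fosb, Egr1, Junb, Ier2 and Nr4a1, which mark a recent stimulus, summed to 101.83, 249.16, 289.15 and 436.11 CPM in KO epidermis against 56.27, 126.01 and 103.52 CPM in WT epidermis. In tongue they summed to 53.37 to 107.67 CPM in KO and 46.4 to 79.87 CPM in WT pups. Of these 6 genes, 5 had both KO libraries above both WT libraries of A38x in epidermis and 0 had both below. In tongue 3 had both above and 1 had both below. The part that either response plays in the levels of the clock genes was not tested.

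**Figure D3:**
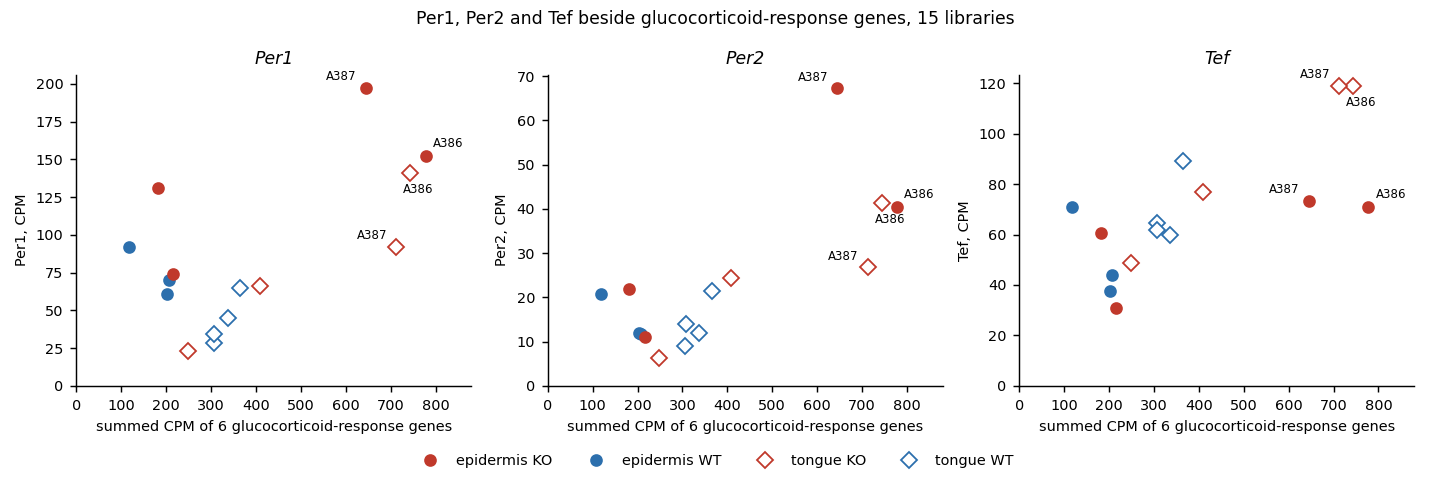
CPM of Per1, Per2 and Tef against the summed CPM of 6 glucocorticoid-response genes in each of the 15 libraries (linear axes from 0; filled circles epidermis, open diamonds tongue, red KO, blue WT). The 4 libraries of KO pups A386 and A387 lie at 644.98 to 777.68 CPM on the horizontal axis and the other 11 at or below 409.17 CPM.

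Where a pup stood in 1 tissue could be compared with where it stood in the other in the 6 pups that gave both. Tef followed the same order in both tissues, with Pearson r = 0.961 (exact permutation p = 0.00139, adjusted 0.0389 over 28 relations) and Spearman rho = 1.0 (exact permutation p = 0.00278, adjusted 0.0778). For Nr1d2 r was 0.947 (exact permutation p = 0.00278, adjusted 0.0389) and rho 0.943 (exact permutation p = 0.0167, adjusted 0.156). Without the 2 pups farthest from the median r was 0.921 for Tef and 0.939 for Nr1d2. Per2 (r = 0.852) and Per1 (r = 0.830) did not pass after adjustment (adjusted exact permutation p = 0.207 each). Dbp (r = 0.222), Nr1d1 (r = 0.0543) and Npas2 (r = -0.238) showed no such relation. The 6 pups were 4 KO and 2 WT, too few to test within a genotype. On DESeq2 size factors 1 of these relations passed. Of the 18 relations of the other 9 genes with Dbp within a tissue, 0 passed, and the strongest were those of Per3 (r = 0.786, adjusted exact permutation p = 0.207) and Npas2 (r = -0.766, adjusted exact permutation p = 0.207) in epidermis and of Npas2 in tongue (r = -0.755, adjusted exact permutation p = 0.207).

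**Figure D4:**
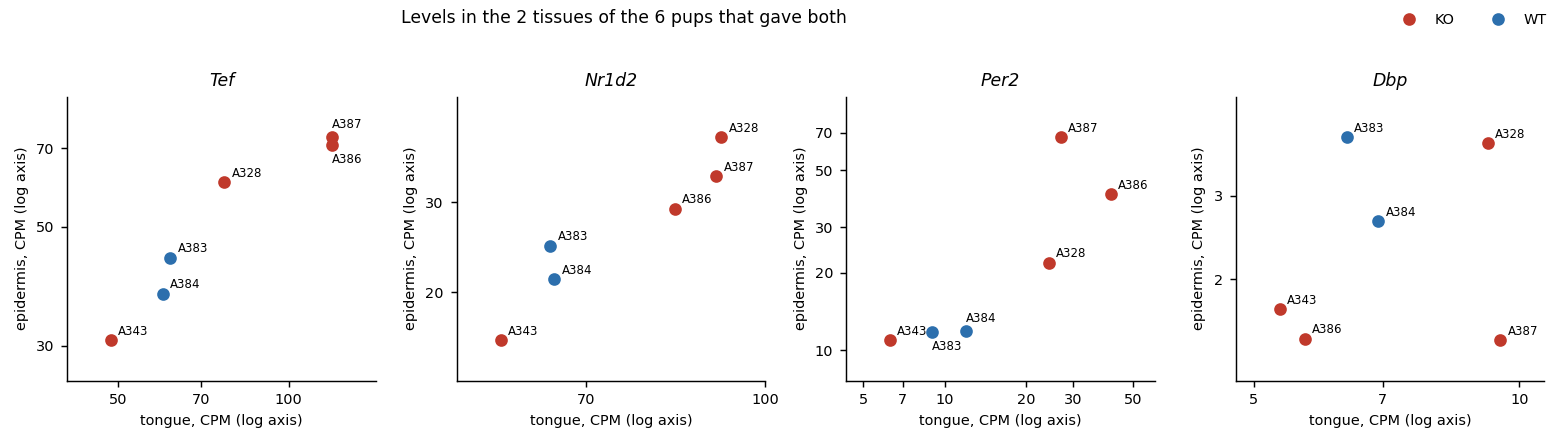
Levels of Tef, Nr1d2, Per2 and Dbp in the epidermis (vertical) and tongue (horizontal) of the 6 pups that gave both tissues, in CPM on log axes, with KO pups in red and WT pups in blue. For Tef the pups come in the same order in both tissues (r = 0.961) and for Nr1d2 nearly so (r = 0.947), while for Dbp they are scattered (r = 0.222).

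The ranges of pup numbers were tested with genotype held constant. In tongue Nr1d1 was the only 1 of the 10 clock genes to differ between ranges (adjusted p = 0.0122), where 0.889% of 15741 genes did. It had 23.88 and 18.33 CPM in A32x (KO and WT), 10.12 and 6.02 CPM in A34x, and 9.65 to 14.05 CPM in the 4 libraries of A38x. The log2 difference was -1.42 for A34x minus A32x and -0.88 for A38x minus A32x. The call ended without tongue WT 1 or KO 1, the libraries of A32x. In epidermis 3 of the 10 were called, where 11.1% of 16073 genes were. Nr1d2 (adjusted p = 0.0276), Per3 (0.0352) and Dbp (0.0429) all had lower levels in A34x and A38x than in A32x. The log2 differences from A32x were -1.54, -1.13 and -1.14 in A34x and -0.70, -0.88 and -1.36 in A38x, in that order of genes. A34x holds 1 epidermis library, and epidermis WT 1 is 1 of the 2 in A32x. Without epidermis WT 3 or KO 3 the count of called clock genes was 0. It rose without WT 1 or KO 1, fits in which A32x holds 1 epidermis library. The share of all genes called in these fits was not computed, so the counts cannot be set against it.

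**Figure D5:**
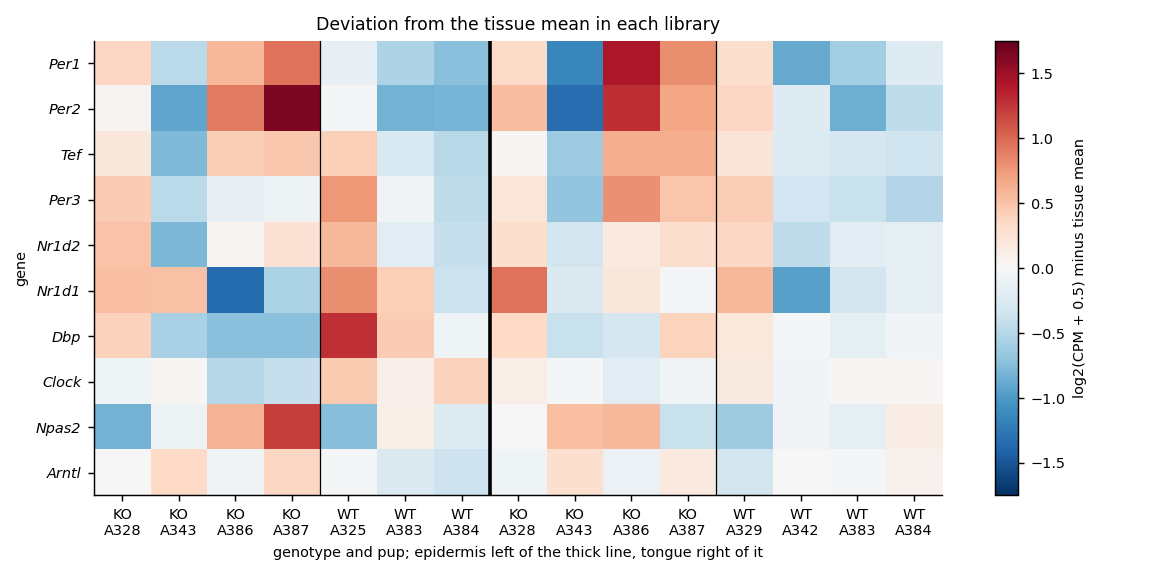
Deviation of each clock gene from its tissue mean in each of the 15 libraries, as log2(CPM + 0.5) minus the mean of the tissue (colour), with KO columns left of WT columns within each tissue. Per1, Per2 and Tef are red in both tissues of KO pups A386 and A387 and blue in both tissues of KO pup A343.

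Around the tissue means the 10 genes moved as more than a single unit. Over the 15 libraries, which share pups and include those of A386 and A387, the correlation of tissue-centred log2 levels was 0.926 between Per1 and Per2, 0.886 between Per2 and Tef, and 0.871 between Per1 and Tef. It was 0.830 between Nr1d2 and Tef and 0.826 between Per3 and Nr1d2. Clock went with Dbp (0.709), and Npas2 went against Dbp (-0.754). Arntl had -0.46 with Clock, 0.41 with Npas2, -0.39 with Dbp and -0.28 with Per3, and between -0.18 and 0.06 with the other 5 genes. These values are descriptions of 15 libraries and carry no test. Among 9111 genes at a mean of at least 5 CPM in each tissue, those most like Dbp were Plekha3 (r = 0.887), Bnip1 (0.879), Psmf1 (0.879), Vash2 (0.879) and Uri1 (0.872). Dbp itself had a mean of 3.25 CPM in epidermis. Its widest deviation was that of epidermis WT 1 (1.27), the library that stood apart, and the part of that library in these values was not tested. Those most like Arntl were Kmt5b (0.866), Rbm5 (0.847), Tmco3 (0.800), Bnip3 (0.778) and Ppil2 (0.772).

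Of the other 18 genes of the clock list 17 were abundant enough to test within a tissue, and Rorb was not. In KO against WT epidermis and in KO against WT tongue 0 of 17 were called. Of the 17, 12 and 14 had log2 fold changes above 0 (medians 0.18 and 0.24), where 50.2% and 51.8% of all genes did. The smallest p in epidermis was that of Wee1, a cell cycle kinase gene under clock control (log2 fold change 0.82, SE 0.34, edgeR adjusted p = 0.9998), and in tongue that of Bhlhe40, a repressor of the E-box pair (0.32, SE 0.13, edgeR adjusted p = 0.939). In epidermis against tongue 12 of 17 were called in KO (9 higher, 3 lower) and 13 of 17 in WT pups (10 higher, 3 lower). Of all genes 63.8% were called in KO (32.7% higher, 31.1% lower) and 63.6% in WT pups (32% higher, 31.6% lower). Rora, an activator of Arntl, was higher in epidermis by a log2 fold change of 3.63 in KO (SE 0.25, adjusted p = 2.08e-07) and 3.65 in WT pups (SE 0.17, adjusted p = 2.75e-07). It had 538.55 to 1041.72 CPM in KO and 555.44 to 731.45 CPM in WT epidermis, against 53.8 to 89.12 CPM in KO and 48.26 to 63.24 CPM in WT tongue. The repressor genes Cry1 and Cry2, partners of the PER proteins, were higher as well, by 0.93 and 1.31 in KO (adjusted p = 0.00483 and 0.0146) and by 0.59 and 0.91 in WT pups (adjusted p = 0.00811 and 0.00831). Hlf, the remaining PAR bZIP gene, was lower in epidermis, with log2 fold changes of -2.81 in KO (SE 0.33, adjusted p = 1.43e-05) and -2.72 in WT pups (SE 0.45, adjusted p = 5.69e-04), so the 3 PAR bZIP genes all had estimates below 0 in both genotypes. Nampt, a clock-controlled gene of NAD synthesis, was lower too, with log2 fold changes of -1.40 in KO and -1.56 in WT pups (adjusted p = 3.15e-04 and 5.07e-05).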

How the data were processed

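Per the labels' protocols, skin and tongue of newborn mice were frozen, epidermis was lifted from dermis by hand after heating in EDTA, cDNA was made with the SMARTer V4 kit, libraries were made with TruSeq v2 and both fragment ends were read on a NextSeq500. The labels do not say that strand was kept. The submitters' processing notes name STAR 2.5.2a, the builds GRCm38.p3 and mm10, and the tools DESeq2, edgeR and limma. How reads were counted, with which annotation and strand setting, is not given in the sources used here.

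Whole-read counts per gene, deposited by the authors, were the values tested. A deposited table of signal values (each count over a constant of its library, close to TMM-scaled CPM) gave the levels, correlations and figures. CPM computed here with TMM factors differed from the deposited values by at most 12%. Of 23422 entries 2 were transgene sequences, left out of library sizes and tests, with 0.000972% to 0.00439% of reads.

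Genes were filtered within each comparison (filterByExpr, minimum count 10), then TMM-scaled and run through the robust quasi-likelihood F test of edgeR 4.0.16 (R 4.3.3, two-sided). P-values were adjusted by Benjamini-Hochberg over every gene tested and called under 0.05. Only the clock genes are printed. SEs were derived from the F statistic and intervals are at 95%. The ranges of pup numbers were tested with genotype as a covariate. Alternatives were other scalings, no filter, exclusion of mitochondrial ribosomal RNA, DESeq2 1.42.0, limma-voom (limma 3.58.1), blocks, A38x alone and each library left out. Correlations used log2(CPM + 0.5) and exact permutation (SciPy 1.17.1), adjusted over 28 relations.

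For KO and WT libraries of 1 replicate number the deviations from group means correlated at 0.601, 0.129 and 0.483 in epidermis. In tongue these correlations were 0.559, 0.126, -0.136 and 0.221. Libraries of unlike number were not compared, so the values cannot tell whether the numbers pair libraries. KO epidermis and KO tongue of 1 number are the same pup by A-number. Known changes were put into simulated counts of genes drawn at random. Of 4-fold and 2-fold changes edgeR recovered 66% and 17% for epidermis among 16073 genes, and 93% and 81% for tongue among 15741. For KO tissues it recovered 94% and 33% among 16398, and for WT tissues 84% and 32% among 16577. Coordinates and exon lengths come from GENCODE M21 and promoter sequences from RefSeq.

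The clock genes and lists were chosen with earlier results of these data known. The text names all 10 in each comparison, list genes past the threshold or with the smallest p, not all of which are printed, and the 5 genes most like Dbp and Arntl. Of the 7 targeted genes 6 were analysed. The values of a gene counted in the wider clock list are not reported here.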

Additional observations from a re-analysis of the deposited data

Results flagged for a closer look

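In 30 groups of 4 libraries (10 genes in 3 groups), 3 had a library far from the other 3, where chance flags about 1 in 20 groups. Dbp in KO epidermis stood at 3.88 CPM in KO 1 (pup A328), and the gap to the nearest other library took 0.9 of the whole range of the group. Per3 in WT tongue stood at 18.01 CPM in WT 1 (pup A329), with a gap of 0.856 of the range. Tef in WT tongue stood at 88.98 CPM in the same library, with a gap of 0.838 of the range. All 3 values were the highest of their group and came from pups of the A32x range.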

How the results depend on the processing

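No clock gene was called between genotypes, or for the difference between tissues, with any library left out (0 to 0 calls in each of these comparisons). In A38x alone KO against WT epidermis called 5. For KO epidermis against KO tongue 4 to 5 were called with 1 library left out. For WT tissues 2 to 5 were called with 1 library left out, 8 in A38x alone (69.6% of all genes) and 8 in the 2 pups with both tissues and the pup as a replicate block (67.8% of all genes), a fit that rests on those pups. For the ranges of pup numbers leaving out 1 library gave 0 to 2 calls in tongue. A38x against all other libraries gave 0 in each tissue, where 0% of all genes were called in tongue and 2.25% in epidermis. The epidermis count for the ranges was 0 without WT 3 or KO 3, and rose without WT 1 or KO 1, which leaves 1 library in A32x. The share of all genes was not computed for any fit with 1 library left out. Between-tissue correlations past the threshold numbered 1 on DESeq2 size factors.

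Blocking by replicate number gave 0 calls in KO against WT epidermis, 0 in tongue and 4 in WT tissues (54.5% of all genes), where the numbers do not pair pups. With the pup as a replicate block 6 clock genes were called between KO tissues (61.9% of all genes). A block by pup for the difference between tissues, chosen after seeing the data, gave 0 calls.

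Genotype estimates that were not called moved with the setting. In epidermis they ran from 0.62 to 1.40 for Per1, 0.57 to 2.17 for Per2, -1.04 to -0.084 for Nr1d1 and -1.65 to -0.60 for Dbp, and in tongue from 0.49 to 1.57 for Per1, 0.44 to 1.69 for Per2, 0.24 to 1.13 for Per3 and 0.23 to 0.96 for Tef. The cause of these moves, and of the changed signs that follow, was not tested. In KO against WT epidermis Nr1d2 was 0.028 without a filter, 0.053 in limma-voom, 0.44 in A38x and 0.25 with the range as a block, and ran from -0.23 to 0.39 with 1 library left out. Per3 was 0.11 in A38x and ran from -0.49 to 0.23 with 1 library left out. In KO against WT tongue Dbp ran from -0.076 to 0.20. For the difference between tissues Per1 was 0.14 in limma-voom with and without a correlation within pups and 0.37 and 0.26 with range and pup blocks, and ran from -0.33 to 0.40. Nr1d2 was 0.020 in A38x and 0.053 and 0.065 with these blocks, and ran from -0.38 to 0.21. Tef was 0.15 and 0.021 with the blocks and ran from -0.40 to 0.18, Npas2 from -0.10 to 0.61 and Per2 from -0.075 to 0.80. Between KO tissues of A38x Npas2 was 0.21 and Per3 -0.18, and between WT tissues Per2 ran from -0.24 to 0.39. Depth limits Dbp and Npas2 most, at 20 and 17 reads in their lowest libraries.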
